A study of Mus musculus with 4 samples.

Results

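Leukocytes leave the blood in steps, and the 5 genes described here encode the endothelial side of those steps. Selp (P-selectin, released from storage granules) and Sele (E-selectin, made anew by activated endothelium) let leukocytes tether and roll. Icam1 and Vcam1 are ligands of leukocyte integrins for firm arrest, and both can be induced by inflammatory cytokines through the transcription factor NF-kB. Icam2 is an integrin ligand that resting endothelium carries constitutively. In the kidney, epithelial cells of injured tubules can also make Icam1 and Vcam1, so these transcripts do not mark endothelium alone.

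The members were chosen by gene symbol, 5 of 32285 genes counted. The 4 sections came from left kidneys of male WT C57BL/6J mice aged 7 to 8 weeks. In the 2 normal sections the kidney had no ischemia, and in the 2 ischemic sections both renal pedicles had been clamped for 30 min and the tissue was taken 24 h later. Frozen 10 µm sections were placed on a Visium slide, which captures polyadenylated RNA on barcoded spots that each cover several cells, and every molecule was counted once by its unique molecular identifier (UMI). The sources do not tie sections to mice, so p-values measure only the spread between sections, which may be technical. Levels are given as CPM, the counts of a gene scaled to a fixed total of UMIs in the same spots.

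Depth ranged from 25957128 to 44528078 UMIs per section over 2401 to 2682 tissue spots. As a check of the labels, the tubular injury genes Havcr1 and Lcn2 had log2 fold changes of 9.64 and 8.78 in ischemic over normal sections. Of 15305 genes tested on section sums with edgeR's quasi-likelihood test, 60.6% passed an adjusted p of 0.05 in either direction, 31% higher and 29.7% lower, so a passing gene was the common case. Of the genes that passed, 51.1% were higher, and 67% under library totals. All fold changes below use TMM scaling. Scaling by library totals raised the median log2 fold change of all genes by 0.27 for whole sections. The endothelial markers were present in every section, with a summed level of 488 and 650 CPM in normal and 798 and 862 CPM in ischemic sections for 10 genes.

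Over whole sections Icam1, Vcam1 and Selp rose and Icam2 fell, while Sele was all but undetected. Icam1 stood at 22.8 and 25.8 CPM in normal sections 1 and 2 and at 59.0 and 57.0 CPM in ischemic sections 1 and 2. The conditions did not overlap, and each pair of sections lay close together. The log2 fold change was 0.98 (SE 0.093, edgeR adjusted p = 2.40e-05). In such tissue sums, a change in the number of cells of a type and a change in RNA per cell cannot be told apart.

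Vcam1 had 8.47 and 13.0 CPM in normal and 17.1 and 19.2 CPM in ischemic sections. Its groups were also apart, but the normal sections differed from each other more than the ischemic ones did. The log2 fold change was 0.51 (SE 0.13, edgeR adjusted p = 0.00889), and without ischemic section 2 it was 0.45 with an adjusted p of 0.0683. Fibroblasts and macrophages can also carry VCAM-1. Of 5 fibroblast markers 4 rose and 1 (Dcn) fell, with summed levels of 152 and 258 CPM in normal and 452 and 467 CPM in ischemic sections. Of 6 macrophage markers 1 (Cd68) rose, 4 fell and 1 did not pass, at 152 and 211 against 153 and 153 CPM; the part of either list in the Vcam1 values was not tested.

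Selp was rare. Normal sections 1 and 2 held 7 and 11 UMIs, or 0.157 and 0.398 CPM, and ischemic sections 1 and 2 held 39 and 49 UMIs, or 1.26 and 1.89 CPM. The lowest ischemic section was well above the highest normal one. The log2 fold change was 2.31 (SE 0.42, edgeR adjusted p = 0.00129).

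Icam2 went the other way, by a small amount. It had 16.2 and 20.8 CPM in normal and 16.6 and 16.5 CPM in ischemic sections, so on the CPM scale the ischemic values lay inside the normal range. With TMM scaling its log2 fold change was -0.42 (SE 0.097, edgeR adjusted p = 0.00468), while scaling by library totals gave -0.16 with an adjusted p of 0.465. The call was also lost without either ischemic section, at adjusted p of 0.0591 and 0.0745. Of the 10 endothelial markers, 5 rose, 1 (Kdr) fell and 4 did not pass, with a median log2 fold change of 0.31 against 0.04 over all genes; the part of endothelial content in the members' values was not tested.

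Sele gave 0 UMIs in both normal sections and in ischemic section 1, and 2 UMIs in ischemic section 2, both in the inner stripe. A count of 0 allows up to 0.0674, 0.108 and 0.0966 CPM in those 3 sections, and the 0.0771 CPM of ischemic section 2 is below its own floor of 0.116 CPM. The gene did not pass the filter on low counts and no fold change is given. At this depth a change of Sele was not detectable.

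**Figure D1:**
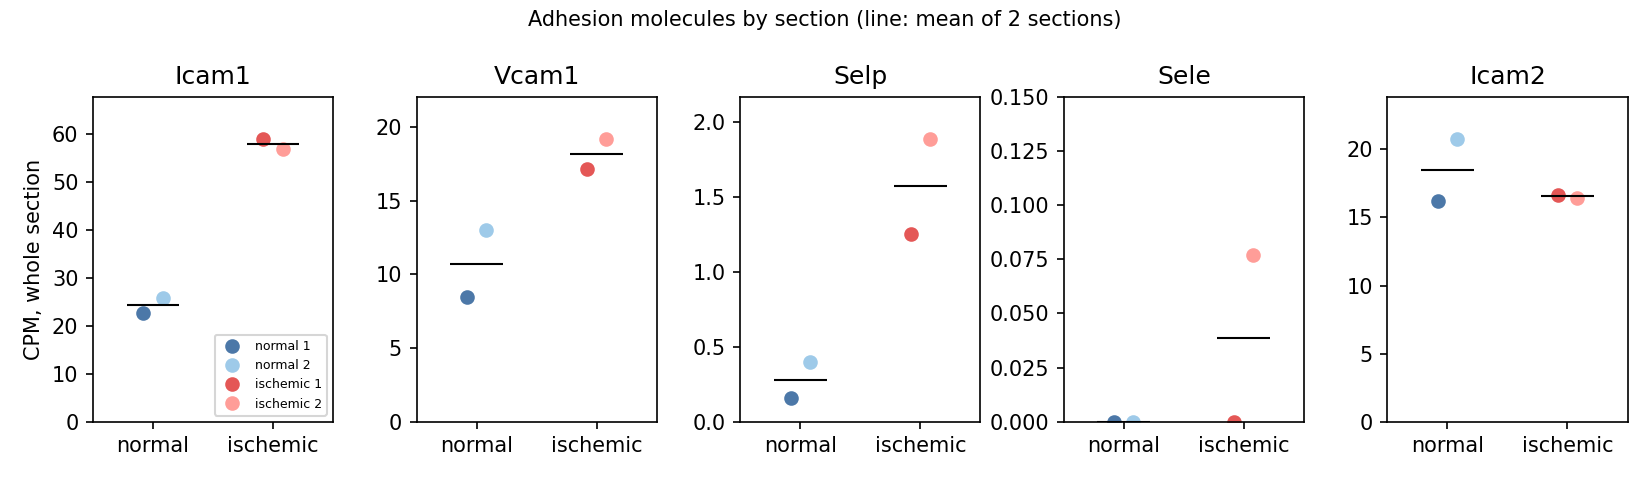
CPM of each adhesion molecule in whole sections (y axis, own scale per gene), with 1 point per section and a line at the mean of the 2 sections of a condition. Icam1, Vcam1 and Selp separate by condition, Icam2 overlaps at 16.2 to 20.8 CPM, and Sele has 1 value above 0, at 0.0771 CPM.

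The share of spots with at least 1 UMI moved like the levels. Icam1 was found in 29.8% (95% Clopper-Pearson interval 28.1 to 31.6) and 20.4% (18.9 to 22.01) of normal spots and in 49.0% (47.0 to 51.0) and 39.7% (37.8 to 41.6) of ischemic spots. These shares depend on depth. Thinned to 2000 UMIs per spot, they were 4.79% and 5.11% in the normal pair and 11.4% and 11.3% in the ischemic pair, and the ratio of the group means was 1.77 before and 2.30 after thinning. Selp was found in 0.229% and 0.373% of normal and 1.46% and 1.80% of ischemic spots, with at most 2 UMIs in any spot. The intervals cover counting error only.

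The genes lie on 4 mouse chromosomes (GENCODE annotation of GRCm38, all protein coding). Icam1 is at chr9:21015985-21028817 on the plus strand, Vcam1 at chr3:116109949-116129688 on the minus strand and Icam2 at chr11:106377656-106388075 on the minus strand. Sele (chr1:164048234-164057677) and Selp (chr1:164115264-164150026) are on the plus strand of the same chromosome. Of these, Sele was at the floor and Selp passed the test.

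Promoter sequences are shown because 2 of these genes rose and 1 stayed at the floor. RefSeq start sites on GRCm38.p6 gave the 250 bases before the start for 3 of the 5 members, Icam1, Sele and Selp, while Vcam1 and Icam2 are named only. Capitals mark matches, on either strand, to the letters GGAANNTCC (a core of many NF-kB sites), TGACNTCA (close to a cAMP response element) and TATAAA (the TATA box); the letters were chosen with these sequences in view.
Icam1 (chr9:21015690-21015939, plus strand): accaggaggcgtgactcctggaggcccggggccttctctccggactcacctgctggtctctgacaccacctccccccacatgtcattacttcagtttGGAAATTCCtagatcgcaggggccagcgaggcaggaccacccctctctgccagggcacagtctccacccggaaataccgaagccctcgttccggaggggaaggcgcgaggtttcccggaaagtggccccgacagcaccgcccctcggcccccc
Sele (chr1:164047984-164048233, plus strand): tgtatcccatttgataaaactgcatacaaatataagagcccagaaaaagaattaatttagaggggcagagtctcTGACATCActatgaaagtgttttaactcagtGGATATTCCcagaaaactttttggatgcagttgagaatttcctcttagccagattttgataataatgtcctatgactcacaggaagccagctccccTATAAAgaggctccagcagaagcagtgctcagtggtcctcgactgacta
Selp (chr1:164115014-164115263, plus strand): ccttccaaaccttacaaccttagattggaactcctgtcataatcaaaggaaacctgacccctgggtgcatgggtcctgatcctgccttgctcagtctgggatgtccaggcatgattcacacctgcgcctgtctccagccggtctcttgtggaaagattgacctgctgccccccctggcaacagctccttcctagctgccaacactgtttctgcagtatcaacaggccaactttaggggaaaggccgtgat

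The NF-kB letters occur in Icam1 at 153 to 145 bases before the start, where both strands match, and in Sele at 145 to 137 bases on the minus strand. They occur in 3.56% of 27025 promoter windows of the same length. Sele also holds the cAMP response element letters (176 to 169 bases before the start, in 7.59% of windows) and the TATA letters (49 to 44 bases, in 13.0% of windows), and the motifs do not overlap. None of these letters is in the Selp window. A match is a description of sequence and not a binding site. The windows contained 65.2% G and C for Icam1, 40.4% for Sele and 53.6% for Selp.

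To ask where in the kidney the levels changed, each spot was given a zone (cortex, outer stripe, inner stripe, inner medulla or pelvis, the stripes making up the outer medulla) from marker genes in the spot and its neighbours. Scored without neighbours, 80.6% to 84.6% of cortex spots kept their zone, but 57.8% to 74.4% of those of the stripes, and 28.3% and 28.5% of the pelvis spots of ischemic sections, so zones other than the cortex are uncertain.

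Icam1 rose in 4 of 5 zones, with the highest fold change in the cortex. There it had 21.3 and 20.2 CPM in normal and 69.8 and 61.3 CPM in ischemic sections. The groups lay far apart compared with their own spread, and the log2 fold change was 1.45 (SE 0.11, edgeR adjusted p = 1.21e-07; 49.8% of 13547 genes passed in the cortex).

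The outer stripe had 21.0 and 22.6 CPM of Icam1 in normal and 41.9 and 47.3 CPM in ischemic sections, a log2 fold change of 0.66 (SE 0.11, edgeR adjusted p = 1.02e-05; 67.4% of genes passed). In the inner stripe it had 26.0 and 42.8 against 61.7 and 64.0 CPM, with a log2 fold change of 0.60 (SE 0.18, edgeR adjusted p = 0.0208; 43.2% of genes passed). In the inner medulla it had 29.2 and 30.6 against 67.8 and 55.0 CPM, with a log2 fold change of 0.86 (SE 0.23, edgeR adjusted p = 0.0254; 27.4% of genes passed). The last 2 calls were lost without either ischemic section and with DESeq2, at adjusted p of 0.0558 to 0.233. Normal pelvis was already at 47.2 and 57.5 CPM, and its ischemic values of 62.2 and 71.3 CPM gave a log2 fold change of 0.27 (edgeR adjusted p = 0.398; 25.3% of genes passed).

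The contrast of Icam1 in outer medulla against cortex differed between conditions. In ischemic sections 1 and 2 the outer stripe, at 41.9 and 47.3 CPM, lay below the cortex, at 69.8 and 61.3 CPM. The inner stripe, at 61.7 and 64.0 CPM, lay below the cortex in ischemic section 1 and above it in ischemic section 2. Library totals shifted the ischemic contrast by a median log2 of 0.199 over all genes. In normal sections the log2 level of Icam1 was 0.31 higher in the outer medulla (mean of the stripes) than in the cortex (SE 0.11, edgeR adjusted p = 0.0529, and 0.0475 under library totals; 26.3% of 14174 genes passed), and in ischemic sections it was lower by 0.51 (log2 -0.51, SE 0.098, edgeR adjusted p = 0.000246; 44.5% of genes passed). The difference between these contrasts was -0.82 (SE 0.15, edgeR adjusted p = 0.000414; 23.1% of genes passed). Without ischemic section 1, which had the highest cortical level, the difference was -0.66 with an adjusted p of 0.0704. For the same difference, the endothelial list had 3 genes higher and none lower of 10, with a median of 0.29 against -0.02 over all genes.

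Selp rose in the outer stripe, the zone where it could be tested. There, normal sections held 1 and 2 UMIs and ischemic sections 21 and 18, or 0.0643 and 0.200 against 2.06 and 2.07 CPM. The ratio of the pooled levels was 17.6 (95% exact counting interval 5.59 to 88.9), and the edgeR log2 fold change was 3.64 (SE 0.60, adjusted p = 1.44e-05). The inner stripe held 0 UMIs in both normal sections and 6 and 14 in ischemic sections, at least 6.26-fold higher against a floor of 3 counts over the normal group, and at least 3.75-fold with ischemic section 1 alone.

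In the cortex Selp had 3 and 6 UMIs in normal and 5 and 7 in ischemic sections, a ratio of 2.01 with a counting interval of 0.778 to 5.41. The inner medulla had 3 and 3 against 5 and 10 UMIs, a ratio of 1.28 (0.468 to 4.01), and the pelvis 0 and 0 against 2 and 0 UMIs. Selp passed the filter on low counts in no zone but the outer stripe, so the other zones have counting intervals only. An interval that includes 1 does not show that Selp was equal there.

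The placement of Selp within sections also differed between conditions. Pooled over the normal sections the outer medulla held 3 UMIs (0.0888 CPM) and the cortex 9 (0.273 CPM), a ratio of 0.325 (counting interval 0.0566 to 1.303). In ischemic sections the outer medulla held 59 UMIs (2.13 CPM) and the cortex 12 (0.549 CPM), a ratio of 3.88 (2.06 to 7.93). The fitted contrast was 1.72 in ischemic sections (SE 0.50, edgeR adjusted p = 0.00994) and -2.53 in normal sections (SE 1.26, adjusted p = 0.163), and their difference was 4.25 (SE 1.32, adjusted p = 0.0257). Since the normal inner stripe is at 0, these fitted sizes depend on the prior count. The difference lost its call without normal section 2 or either ischemic section, at adjusted p of 0.105 to 0.153. The ischemic contrast lost its call without either ischemic section, and with zones from the spot alone it was 0.88 with an adjusted p of 0.124.

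Neutrophil genes were also high in the ischemic outer stripe. The summed level of 5 neutrophil markers in the outer stripe was 1.29 and 1.303 CPM in normal and 316 and 321 CPM in ischemic sections, against 67.8 and 80.1 CPM in the ischemic cortex. All 5 markers rose in whole sections. Platelets also carry P-selectin. The summed level of 5 platelet markers was 18.6 and 18.8 CPM in normal and 25.6 and 25.1 CPM in ischemic outer stripe, and 20.4 and 28.6 against 37.0 and 40.8 CPM in the inner stripe. In the outer stripe 1 of these markers rose, 1 fell and 3 were too low to test, and in whole sections 1 (Pf4) rose, 2 fell and 2 were too low, at 23.6 and 30.0 against 24.4 and 26.2 CPM. Nearly all of these whole-section sums came from Itga2b (16.0 and 21.1 against 7.76 and 9.98 CPM) and Pf4 (6.65 and 7.74 against 16.1 and 15.8 CPM). For the change of outer medulla against cortex between conditions, 1 of the 3 platelet markers tested was higher and none lower, with a median of 1.497 against -0.02 over all genes. The part of either cell type in the Selp values was not tested.

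**Figure D2:**
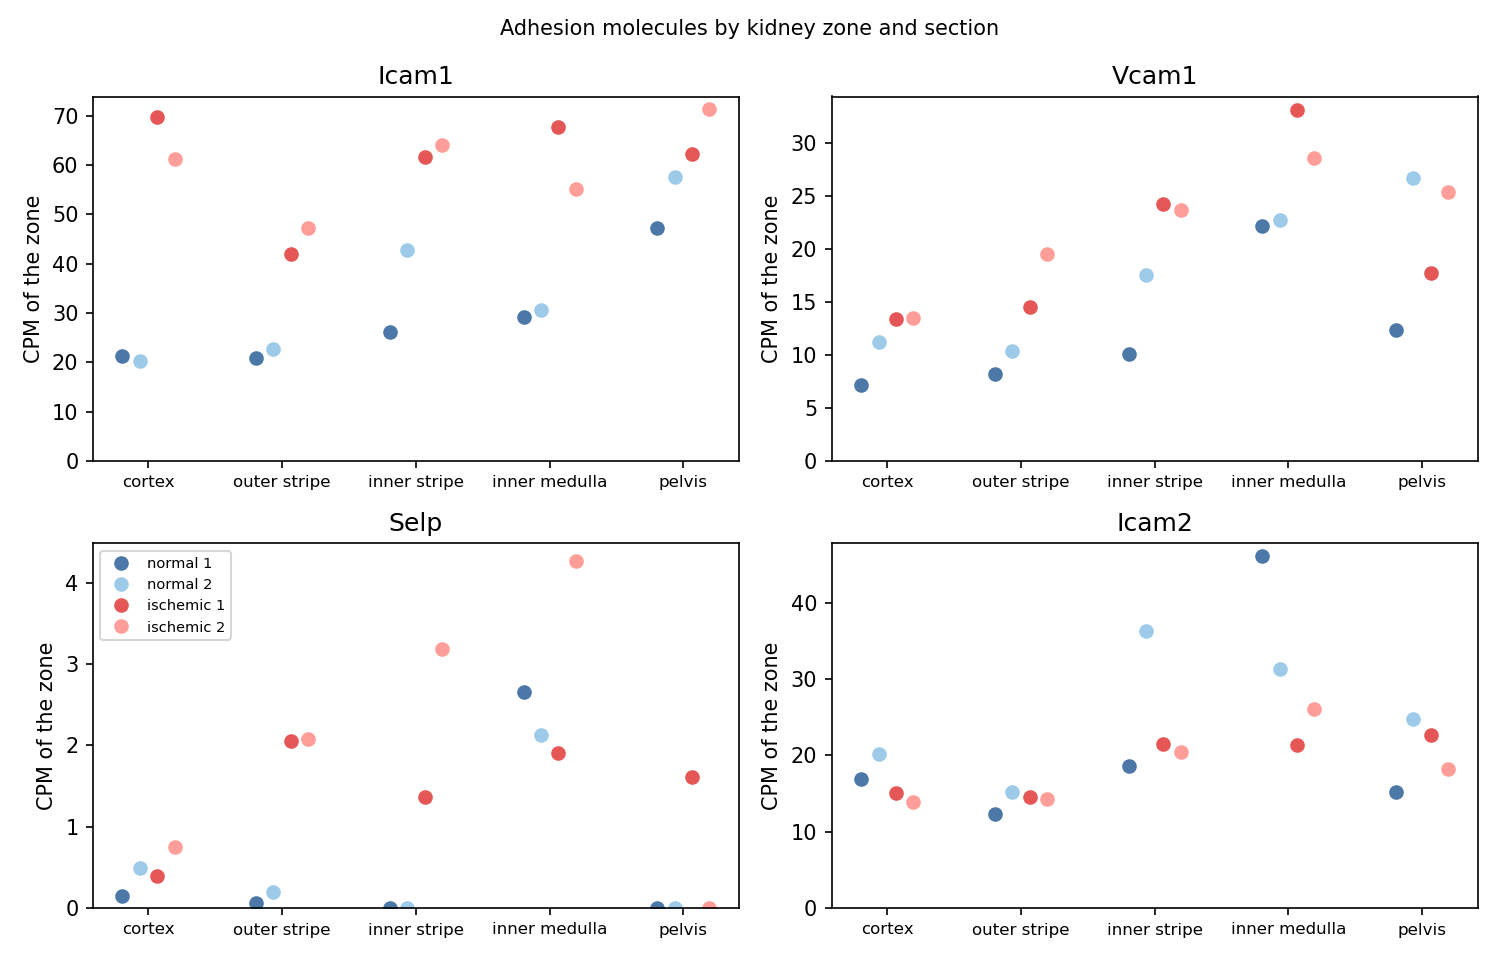
CPM of Icam1, Vcam1, Selp and Icam2 in each kidney zone (y axis, own scale per gene), 1 point per section. Icam1 is at 20.2 and 21.3 CPM in normal cortex and 61.3 and 69.8 CPM in ischemic cortex, while Selp is at or below 0.200 CPM in the normal stripes and between 1.36 and 3.19 CPM in the ischemic stripes.

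Vcam1 was numerically higher in the ischemic sections of 4 zones and passed the test in the outer stripe, while the cortex and the inner stripe lay near the threshold. The outer stripe had 8.23 and 10.4 CPM in normal and 14.5 and 19.6 CPM in ischemic sections, a log2 fold change of 0.51 (SE 0.16, edgeR adjusted p = 0.00671). This call was lost without ischemic section 2 (0.30, adjusted p = 0.189) and with DESeq2 (0.48, adjusted p = 0.0958). The cortex had 7.21 and 11.3 against 13.4 and 13.5 CPM, where the log2 fold change of 0.38 did not pass (SE 0.17, edgeR adjusted p = 0.0736). It passed in the cortex under library totals (0.57, adjusted p = 0.0485), with no filter on low counts (0.39, adjusted p = 0.0290), with the replicate number as a block (0.39, adjusted p = 0.0230) and without normal section 2 (0.57, adjusted p = 0.00141), and not without normal section 1 (0.14, adjusted p = 0.519).

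In the inner stripe Vcam1 had 10.1 and 17.6 against 24.3 and 23.7 CPM (log2 fold change 0.55, SE 0.22, edgeR adjusted p = 0.0682), which passed with no filter (0.60, adjusted p = 0.0468), with zones from the spot alone (0.67, adjusted p = 0.0163) and without normal section 2 (0.66, adjusted p = 0.00698). In the inner medulla and the pelvis the log2 fold changes were 0.29 (adjusted p = 0.423) and 0.05 (adjusted p = 0.929), and the pelvis groups overlapped. Whether the fold change of Vcam1 differs between zones was tested for outer medulla against cortex, where the difference was 0.13 (SE 0.21, edgeR adjusted p = 0.725). Within ischemic sections outer medullary Vcam1 exceeded cortical Vcam1 by a log2 of 0.38 (SE 0.14, edgeR adjusted p = 0.0314), a call lost without either ischemic section, at adjusted p of 0.158 and 0.412.

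Icam2 fell in the cortex, from 16.9 and 20.2 CPM in normal to 15.04 and 13.9 CPM in ischemic sections. The log2 fold change was -0.54 (SE 0.12, edgeR adjusted p = 0.00200), and -0.35 with an adjusted p of 0.0889 under library totals. The inner stripe value of -0.62 (SE 0.22, edgeR adjusted p = 0.0476) came from 18.6 and 36.3 CPM in normal and 21.5 and 20.5 CPM in ischemic sections, which overlap, and its call was lost under library totals (-0.35, adjusted p = 0.446). The outer stripe (-0.29), inner medulla (-0.89) and pelvis (-0.05) did not pass, though the inner medulla passed with no filter (-0.81, adjusted p = 0.0143) and the outer stripe with zones from the spot alone (-0.42, adjusted p = 0.0133), and the outer stripe and pelvis values changed sign under library totals. Outer medulla and cortex did not differ past the test in either condition, at log2 -0.03 in normal and 0.06 in ischemic sections.

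**Figure D3:**
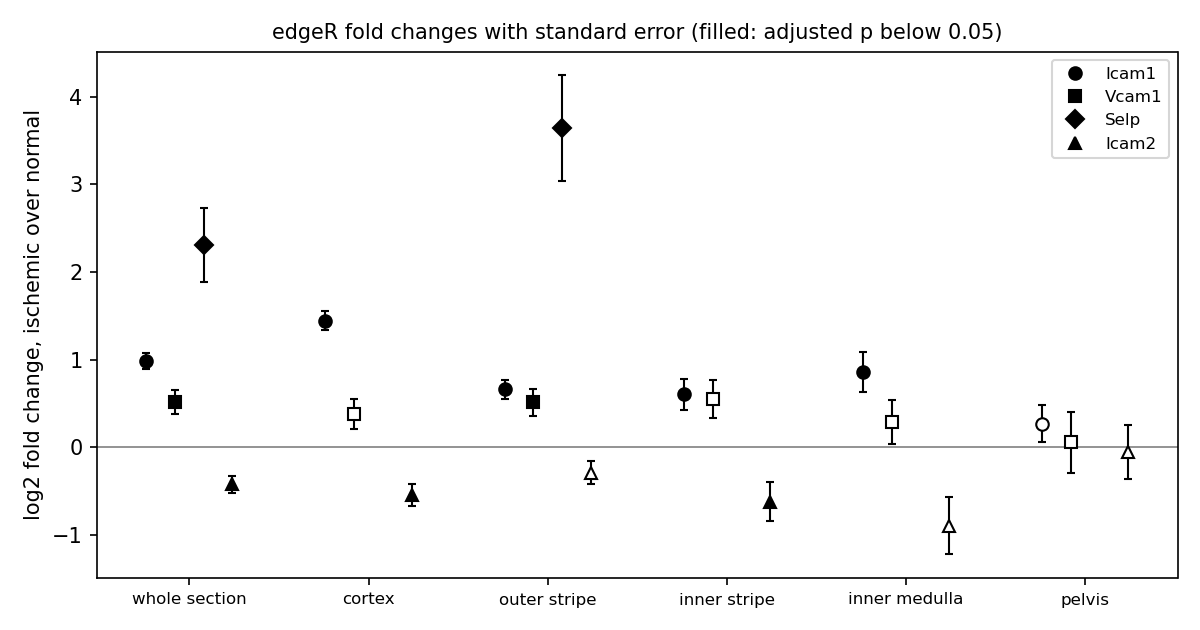
Log2 fold change of ischemic over normal sections (y axis, TMM scaling) for whole sections and each zone, with bars of 1 standard error and filled symbols where the edgeR adjusted p is below 0.05. Icam1 is filled everywhere but in the pelvis, with its highest value of 1.45 in the cortex; Selp appears where it passed the filter, at 2.31 and 3.64, and Icam2 lies below 0 throughout, which library totals reverse in the outer stripe and pelvis.

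Smooth muscle genes were used to find spots that may hold arteries, although the wall of the renal pelvis has smooth muscle too. Artery-rich spots were the 5% of spots of each section with the highest summed level of Acta2, Myh11, Tagln and Cnn1, which hold none of the members. In normal sections 1 and 2, 35.1% and 50% of them lay in the cortex, 38.2% and 20.1% in the inner medulla and 19.1% and 24.6% in the pelvis. In normal sections all 4 tested members were higher there than in the other spots (36.6% of 15331 genes passed in either direction and 18.3% were higher, and of those that passed 50.1% were higher, or 72.9% under library totals). Selp had 5 and 6 UMIs in 131 and 134 artery-rich spots and 2 and 5 UMIs in all other spots, or 4.04 and 5.45 against 0.0462 and 0.188 CPM. Most Selp UMIs of a normal section thus lay in a small share of its spots, and the log2 difference was 5.11 (SE 0.87, edgeR adjusted p = 1.88e-07). Markers of other cell types moved with the members in this contrast. All 5 fibroblast markers were higher (1099 and 1966 against 125 and 188 CPM summed), as were the 3 platelet markers tested of 5 (112 and 114 against 21.02 and 26.5 CPM), 5 of 6 macrophage markers, with 1 lower (359.98 and 511 against 146 and 198 CPM), and 7 of 10 endothelial markers, with 1 lower (1094 and 1015 against 471 and 635 CPM). The part of these cell types in the members' values was not tested.

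Vcam1 was at 33.9 and 49.1 CPM in normal artery-rich spots and at 7.74 and 11.5 CPM elsewhere (log2 difference 1.83, SE 0.21, edgeR adjusted p = 1.46e-14). Icam2 was at 60.5 and 57.2 against 14.9 and 19.2 CPM (log2 difference 1.52, SE 0.17, edgeR adjusted p = 3.81e-15). For Icam1 the contrast was smaller, 37.9 and 41.8 against 22.3 and 25.1 CPM (log2 difference 0.46, SE 0.17, edgeR adjusted p = 0.0225), and its call was lost without either normal section, at adjusted p of 0.116 and 0.230. Spots with a Selp UMI in normal sections also often had an Icam2 UMI, in 6 of 6 and 7 of 10 spots, where 22.3% and 17.1% of all spots had one. In ischemic sections the counts were 7 of 35 and 10 of 47 against 18.2% and 14.6% of all spots. Such shares depend on depth. In normal sections 1 and 2 the spots with Selp had a median of 14929.5 and 12575.5 UMIs, against 16162.5 and 8656 over all spots. In ischemic sections 1 and 2 these medians were 13125 and 9575 against 11851 and 8883 UMIs.

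In ischemic sections 2 of the 4 tested members passed (16.1% of genes passed). All 5 fibroblast, all 10 endothelial, 3 of 6 macrophage and 1 of 3 tested platelet markers were higher there. Neutrophil markers summed to 757 and 716 CPM in these spots and 151 and 152 CPM elsewhere. The part of these cell types in the members' values was not tested. Vcam1 was at 20.5 and 43.1 CPM in artery-rich spots and at 17.0 and 18.1 CPM elsewhere (log2 difference 0.65, SE 0.21, edgeR adjusted p = 0.0176), and without ischemic section 2 the value was 0.10 with an adjusted p of 0.948, while ranking by Myh11 and Cnn1 alone gave 0.58 and an adjusted p of 0.0599. Icam2 was at 32.6 and 31.0 against 15.9 and 15.8 CPM (log2 difference 0.83, SE 0.20, edgeR adjusted p = 0.000645), which without ischemic section 1 gave 0.78 and an adjusted p of 0.139. Selp, with 4 and 4 UMIs in and 35 and 45 outside these spots, had a log2 difference of 0.95 (SE 0.69, adjusted p = 0.431), and 1.79 with an adjusted p of 0.00457 when the top 10% of spots were taken. Icam1 was at 57.6 and 63.7 against 59.1 and 56.7 CPM, with no call (-0.11, adjusted p = 0.682).

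The change of this contrast between conditions was tested after these values had been seen. It was -4.16 for Selp (SE 0.99, edgeR adjusted p = 0.000898), -1.19 for Vcam1 (SE 0.28, adjusted p = 0.000564), -0.69 for Icam2 (SE 0.24, adjusted p = 0.0432) and -0.57 for Icam1 (SE 0.22, adjusted p = 0.0618, and 0.0390 under library totals), where 13% of genes passed. Vcam1 lost its call without ischemic section 1 (adjusted p = 0.219), and Icam2 lost it without normal section 1 or either ischemic section (adjusted p of 0.243 to 0.397). The spots themselves differed. Of the artery-rich spots of ischemic sections, 13.3% and 14.5% lay in the cortex, 57.5% and 55.0% in the outer stripe (4.58% and 5.22% in normal sections), 12.5% and 9.16% in the inner medulla and 4.17% and 3.05% in the pelvis. Their smooth muscle level was 3885 and 4236 CPM against 46.8 and 75.5 CPM elsewhere in normal sections, but 1628 and 1884 against 234 and 243 CPM in ischemic sections. In whole sections Acta2 and Tagln rose and Myh11 and Cnn1 fell. Spots ranked by Myh11 and Cnn1 alone shared 85.5% and 74.6% with the 4-gene set in normal sections, but 23.3% and 28.2% in ischemic sections. The name artery-rich is thus uncertain for the ischemic spots. Ranking by Myh11 and Cnn1 alone, also added after seeing the data, gave changes of -4.21 for Selp (adjusted p = 0.00270), -1.21 for Vcam1 (adjusted p = 0.00127) and -0.68 for Icam2 (adjusted p = 0.0659).

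**Figure D4:**
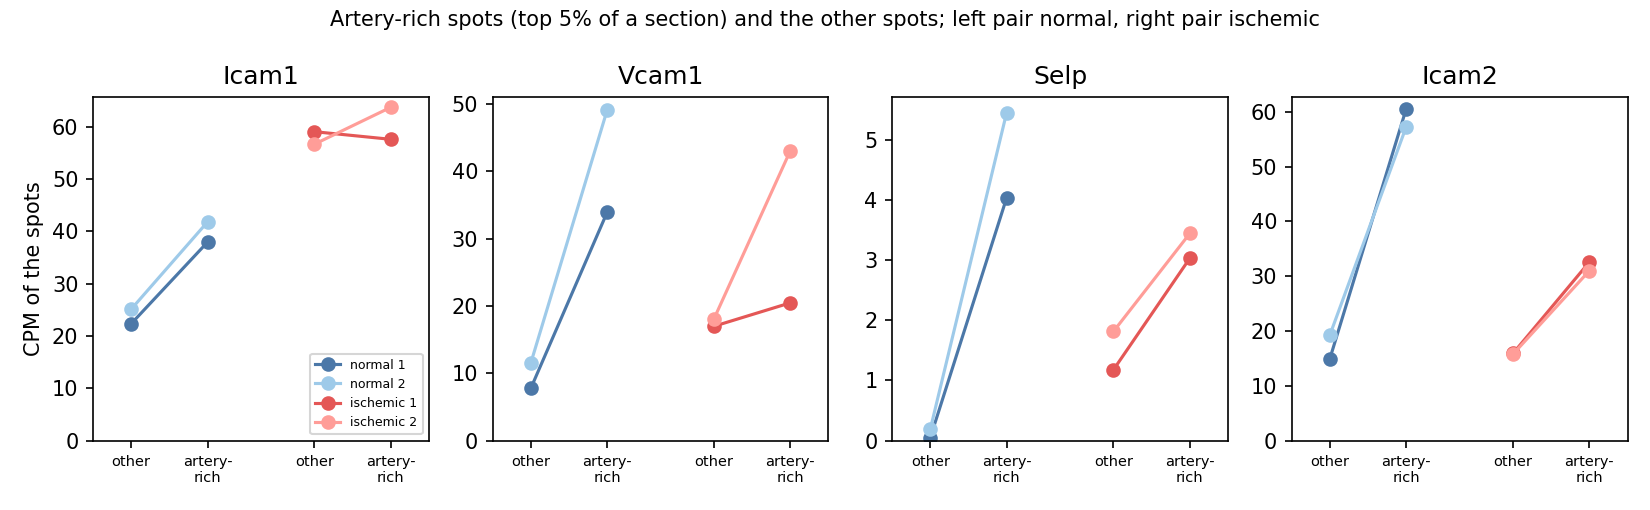
CPM in artery-rich spots and in the other spots of the same section (y axis, own scale per gene), joined by a line for each section, with normal sections on the left of each panel and ischemic sections on the right. In normal sections all lines rise, for Selp from 0.0462 and 0.188 to 4.04 and 5.45 CPM, and in ischemic sections Icam1 goes from 59.1 to 57.6 CPM and from 56.7 to 63.7 CPM.

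Icam2 was higher in glomerulus-rich spots, ranked by podocyte genes, than in the other spots. It had 37.1 and 51.8 CPM there against 15.5 and 19.7 CPM elsewhere in normal sections (log2 difference 0.93, SE 0.17, edgeR adjusted p = 4.18e-07; 24.1% of genes passed). Ischemic sections had 34.9 and 34.0 against 16.0 and 15.9 CPM (log2 difference 0.93, SE 0.21, edgeR adjusted p = 0.000385; 9.43% of genes passed), with an adjusted p of 0.118 without ischemic section 1. Vcam1 was higher in glomerulus-rich spots of normal sections (0.73, SE 0.23, edgeR adjusted p = 0.0107), a call lost without either section, and did not pass in ischemic sections (0.43, adjusted p = 0.299, and 0.65 with an adjusted p of 0.00170 for the top 10% of spots). Icam1 did not pass in either condition, at -0.11 and 0.17, and the normal value changed sign under library totals. Endothelial markers summed to 1090 and 1539 CPM in glomerulus-rich spots of normal sections, against 468 and 619 CPM elsewhere. In ischemic sections they summed to 1299 and 1453 against 781 and 844 CPM. The part of endothelial content in these values was not tested.

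Spots were also ranked by 5 neutrophil genes, each spot first by its own level and then by that of its neighbours. In ischemic sections every spot of the top 5% held a neutrophil count. Vcam1 had 22.5 and 38.5 CPM there against 16.9 and 18.2 CPM elsewhere (log2 difference 0.70, SE 0.21, edgeR adjusted p = 0.0226). In this contrast 12.6% of genes passed. Of these spots 62.5% and 58.0% lay in the outer stripe. Smooth muscle genes had 736 and 865 CPM there against 272 and 288 CPM elsewhere. Platelet markers had 73.7 and 62.0 against 22.1 and 24.4 CPM, and macrophage markers 230 and 262 against 150 and 148 CPM. Endothelial markers had 1022 and 1073 against 787 and 851 CPM. T cell markers had 1.40 and 1.57 against 2.30 and 2.35 CPM, and B cell markers 0.702 and 0 against 1.11 and 1.09 CPM. In the ranked spots these levels rest on fewer UMIs than the 6 and 7 of Selp, so no difference is read from them. The part of these cell types was not tested. In normal sections 82 of 131 and 85 of 134 of the spots taken held no count of a neutrophil gene and were placed by their neighbours, so the name neutrophil-rich does not describe most of them. Those spots had 12.3 and 30.4 CPM of Vcam1 against 8.29 and 12.1 CPM elsewhere (0.90, SE 0.23, edgeR adjusted p = 0.0182; 4.92% of genes passed), and with the top 10% of spots the call was lost (0.62, adjusted p = 0.0958). Of 6 macrophage markers 3 were higher and none lower in the normal spots, as were 3 of 4 platelet markers tested, and their part was not tested. The calls rested on normal section 2 and ischemic section 2, without which the differences were 0.43 (adjusted p = 0.619) and 0.30 (adjusted p = 0.738). Selp had 6 and 7 UMIs in neutrophil-rich spots of ischemic sections and 33 and 42 elsewhere, or 4.21 and 5.50 against 1.11 and 1.70 CPM, a log2 difference of 1.72 that did not pass (SE 0.63, edgeR adjusted p = 0.0724), and with the top 10% of spots it was 1.45 with an adjusted p of 0.0452. Icam1 had -0.23 in ischemic sections (adjusted p = 0.343), and -0.35 with an adjusted p of 0.0181 for the top 10% of spots. In injured-tubule-rich spots, ranked by Havcr1, Lcn2 and Krt20, no member passed in either condition (28% and 24.8% of genes passed); 1 of the 8 unadjusted values was below 0.05, that of Vcam1 in normal sections (log2 difference 0.53, edgeR adjusted p = 0.0993). The normal spots so taken held 128 and 171 CPM of the 3 genes, against 4264 and 4691 CPM in the other spots of ischemic sections. The name injured-tubule-rich therefore does not describe the normal spots. Of them, 40.5% and 29.9% lay in the inner stripe and 29.8% and 17.9% in the pelvis. In ischemic sections 1 and 2, 0.833% and 1.53% of the injured-tubule-rich spots lay in the cortex and 0% and 0% in the outer stripe. The inner stripe held 30% and 35.1% of them, the inner medulla 54.2% and 35.9% and the pelvis 15% and 27.5%. The ischemic values thus cover almost no cortex or outer stripe. Under library totals Icam1 (0.59), Vcam1 (0.97) and Icam2 (0.66) passed in normal sections, at edgeR adjusted p of 0.00196 to 0.00929. Under the top 10% of spots Icam1 passed at -0.36 in ischemic sections (adjusted p = 0.0108).

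Cytokine, receptor and NF-kB pathway genes mostly rose, and their link to the members' values was not tested. Of 20 cytokine, receptor and NF-kB genes, 15 rose, none fell, 4 did not pass and 1 (Il1a) was too low to test, with a median log2 fold change of 0.90 against 0.04 over all genes tested. Nfkb2, an NF-kB subunit, went from 11.1 and 14.4 CPM to 50.7 and 48.2 CPM (log2 fold change 1.69, SE 0.098, edgeR adjusted p = 1.22e-06). Il6, a cytokine, had 0 UMIs in both normal sections and 2.29 and 3.005 CPM in ischemic sections, at least 62.9-fold higher against a floor of 3 counts over the normal group, and the list's median was the same with Il6 at that bound.

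**Figure D5:**
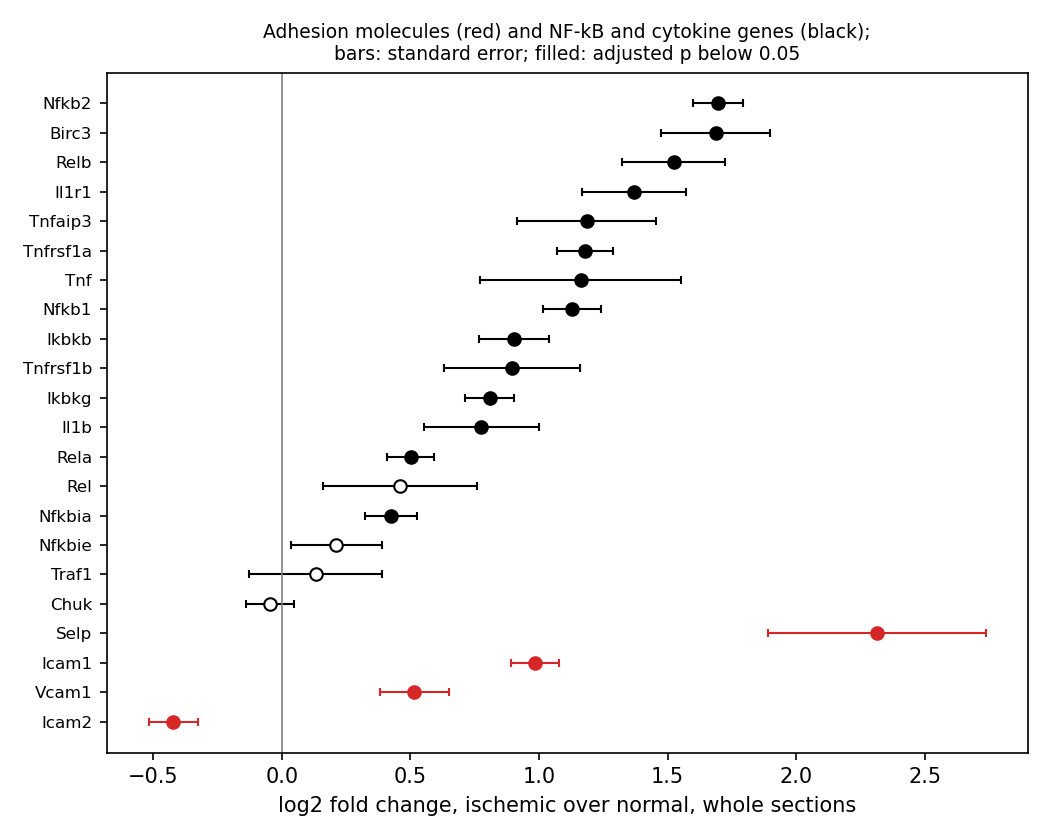
Log2 fold change of ischemic over normal whole sections (x axis, bars of 1 standard error) for 4 adhesion molecules in red and 18 cytokine, receptor and NF-kB genes in black; Il6, at 0 in normal sections, is left out. Filled symbols have an edgeR adjusted p below 0.05; 14 of the 18 black symbols are filled, all above 0.

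Genes of leukocyte integrins that bind these molecules split in direction, and tissue sums do not assign their RNA to leukocytes. Of 9 genes, 4 rose, 3 fell, 1 did not pass and 1 was too low to test (median 0.34). Over all genes tested 31% were higher and 29.7% lower, with a median of 0.04, for this list and those below. Leukocyte markers also changed in both directions. All 5 neutrophil markers were higher (1.41 and 2.17 against 177 and 178 CPM summed), while all 5 T cell markers were lower (9.61 and 19.7 against 2.25 and 2.31 CPM), as were the 2 B cell markers tested of 4 (3.82 and 6.33 against 1.09 and 1.04 CPM), and their part in the integrin values was not tested. Itgam, the alpha chain of Mac-1, which binds ICAM-1, had 0.157 and 0.325 CPM in normal and 3.41 and 3.81 CPM in ischemic sections (log2 fold change 3.70, SE 0.32, edgeR adjusted p = 1.47e-05), and Itga9, which can bind VCAM-1, rose by a log2 of 1.38. Itgb7, which pairs with the alpha 4 chain, fell by 1.97 on the log2 scale, and Itgax fell by 1.03, with an adjusted p of 0.114 under library totals and 0.102 without ischemic section 1.

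Selectin ligands and the enzymes that build them had 4 genes higher, 1 lower, 5 not past the test and 3 too low to test of 13 (median 0.15). Cd24a, a mucin-like ligand of P-selectin that tubular epithelium also makes, went from 174 and 221 CPM to 1165 and 1206 CPM (log2 fold change 2.32, SE 0.15, edgeR adjusted p = 1.97e-06). Glycam1 was at 0 in normal and at 0.741 and 1.66 CPM in ischemic sections, at least 27.9-fold higher over both sections and at least 17.8-fold in ischemic section 1 alone. Gcnt1, a glycosyltransferase, fell from 371 and 330 CPM to 77.7 and 72.2 CPM (log2 fold change -2.51). Selplg, which encodes the main P-selectin ligand of leukocytes, did not pass (-0.29, edgeR adjusted p = 0.322).

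Among 12 other junction and adhesion genes, 6 rose, 3 fell, 2 did not pass and 1 was too low to test (median 0.33). Mcam had a log2 fold change of 1.45 and Jam2 of 1.20. Icam4, with 53 UMIs over all sections, fell by 1.58, from 0.449 and 0.723 to 0.258 and 0.193 CPM. Cd99l2 had -0.27, which became 0.0094 under library totals. Of 7 genes that link adhesion molecules to the cytoskeleton or shed them, 6 rose and 1 fell (median 0.68): Actn1 had 2.57, Msn (moesin) 2.08 and Rdx (radixin) -0.30, the last with an adjusted p of 0.859 under library totals.

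Of 6 genes of the Weibel-Palade bodies, the endothelial granules that store P-selectin, 2 rose, 2 fell and 2 did not pass (median 0.14). Tissue sums do not show whether endothelium or other cells made these transcripts. Edn1 (endothelin) had a log2 fold change of 2.17 and Plat (tissue plasminogen activator) of 1.81. Vwf, the main cargo, had 4.24 and 5.86 CPM in normal and 2.06 and 4.82 CPM in ischemic sections, a fall of 0.83 on the log2 scale (edgeR adjusted p = 0.0486) that was not past the test without ischemic section 1 (-0.32, adjusted p = 0.376) or under library totals. Rab27a fell by 0.47 (adjusted p = 0.0466), with -0.20 and an adjusted p of 0.549 under library totals. Without either ischemic section, Icam4, Cd99l2, Rdx and Rab27a were not past the test, at adjusted p of 0.0684 to 0.379.

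Among 12661 genes with at least 200 UMIs, those most like each member over the 20 section and zone sums were taken by Pearson correlation of log2(CPM + 1), as a description, since sums of a section share its depth and condition. Icam1 was closest to Nipsnap3b (0.948), Scarb2 (0.938) and Atp6v0a1 (0.935). Vcam1 was closest to Amotl1 (0.946), Atxn7l3 (0.943) and Cavin3 (0.939). Icam2 was closest to E4f1 (0.867), Ptprb (0.865), an endothelial phosphatase, and Ppp2r5a (0.861). Selp was closest to Gfpt2 (0.852), Rbm27 (0.805) and Ctla2a (0.795), on few counts.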

How the data were processed

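Spatial libraries of 4 kidney sections were used. The deposited values are raw UMI counts by gene and tissue spot, made by the authors with Space Ranger (1.3.0 per the file headers; build mm10 per the submitters' processing notes) and not normalized. Their gene annotation is not named in the sources used here. Gene positions came from GENCODE (GRCm38), where 32158 of 32285 identifiers matched (99.6%).

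Counts were summed per section, per section and zone (at least 20 spots), and per section inside and outside the top 5% of spots by a marker list. Sums were tested with edgeR 4.0.16 in R 4.3.3 (TMM, filterByExpr, quasi-likelihood test, Benjamini-Hochberg over all genes tested, threshold 0.05); conditions were compared in a separate fit per zone, and contrasts within sections (outer medulla against cortex, spot sets) had the section as a block. All spot sets and zones were built without the members. Zones took the highest marker score over a spot and its up to 6 neighbours, and pelvis the top 5% of spots by urothelial genes. The members and gene lists were chosen with earlier results of these data known. 1 gene of the selectin ligand list is not reported here and was left out of its counts. Named genes are the members, Havcr1 and Lcn2, and per list up to 2 largest rises and 2 largest falls past the threshold and the 3 genes most like each member, other list genes being named after their values were seen; the 3 most alike genes of Sele, with 2 UMIs, are not given. Depth was 25957128 to 44528078 UMIs per section, and intervals and floors (3 counts) cover counting error only. Alternatives were DESeq2 1.42.0, no filter, library totals, leaving out each section, a replicate block, other zone settings, spots thinned to 2000 UMIs and the top 10% of spots. The whole-section fits (edgeR and DESeq2), the difference between conditions in outer medulla against cortex and the ischemic artery-rich contrast were also tested on simulated data.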

Additional observations from a re-analysis of the deposited data

Results flagged for a closer look

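For 5 results the same contrast differed between conditions by a test of the difference itself. Icam1 in outer medulla against cortex differed by -0.82 (log2, ischemic minus normal, SE 0.15, edgeR adjusted p = 0.000414), and Selp by 4.25 (SE 1.32, edgeR adjusted p = 0.0257), on 3 UMIs in normal outer medulla. In artery-rich against other spots, Selp differed by -4.16 (SE 0.99, edgeR adjusted p = 0.000898), Vcam1 by -1.19 (SE 0.28, edgeR adjusted p = 0.000564) and Icam2 by -0.69 (SE 0.24, edgeR adjusted p = 0.0432), where the spots called artery-rich lay in different zones in the conditions.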

How the results depend on the processing

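Of 545 values of members recomputed under an alternative, 448 kept their direction and side of the threshold, 50 lost the call, 28 gained it and 19 changed sign; none of the 19 passed the test as reported or under the alternative. The cause of these changes was not tested unless stated. With 1 section left out, the lone section of its condition is assumed to vary like the others. Counts limit Selp and Sele, and zones other than the cortex are uncertain. Selp contrasts on 0 to 3 UMIs in the marker-rich spots (glomerulus-rich, injured-tubule-rich and normal neutrophil-rich) are left out here.

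The sections share only a number across conditions. The correlation of their deviations from the condition mean was 0.162. With 2 sections per condition this value is the same for both pairs by construction, so it is 1 value. With this number as a replicate block, whole sections gave 10089 calls in place of 9279, and Vcam1 in the cortex gained a call (0.39, edgeR adjusted p = 0.0230); the block changed no other call of a member.

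Library totals gained calls for Icam2 in normal neutrophil-rich spots (0.63, edgeR adjusted p = 0.0473) beside those in the text. They reversed Cd99l2 (0.0094), Icam2 in the outer stripe (0.074), pelvis (0.018) and normal outer medulla against cortex (0.018), and Icam1 in artery-rich (0.064) and injured-tubule-rich (0.052) spots of ischemic and glomerulus-rich spots of normal sections (0.28). Zones from the spot alone reversed Vcam1 in the pelvis (-0.36). The top 10% of spots reversed Icam2 in normal injured-tubule-rich (-0.031) and Vcam1 in ischemic injured-tubule-rich spots (0.059). Myh11 and Cnn1 alone reversed Icam1 in ischemic artery-rich spots (0.082) and gave 1509 calls there in place of 2472.

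With DESeq2 the inner medulla had 1935 calls in place of 3077 and the pelvis 1455 in place of 2677. Calls numbered 4978 in the inner medulla with 1 model for all zones, and 2045 in place of 3276 for the change of outer medulla against cortex with no section block. The top 10% of spots gave 107 in place of 739 in normal neutrophil-rich and 5636 in place of 3733 in ischemic injured-tubule-rich spots. Thinning moved the ratio of Icam1 shares to 2.30.

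Leaving out each section in turn gave 3138 to 7545 calls in the inner stripe, 1561 to 4018 in the inner medulla and 1413 to 2990 in the pelvis. Outer medulla against cortex gave 3036 to 7491 in ischemic sections and 1153 to 4071 for the change. Artery-rich spots gave 891 to 3027 in ischemic sections and 881 to 2046 for the change, glomerulus-rich spots 2247 to 3499 in normal and 522 to 1484 in ischemic sections, neutrophil-rich spots 633 to 1216 and 783 to 2450, and injured-tubule-rich spots 2235 to 4538 in normal sections. Among members not past the test, the pelvis ranged from -0.31 to 0.63 for Vcam1 and -0.28 to 0.25 for Icam2. Icam2 ranged from -0.14 to 0.054 in normal outer medulla against cortex, from -0.0064 to 0.20 for its change, and from -0.16 to 0.37 in ischemic neutrophil-rich spots. Icam1 ranged from -0.45 to 0.080 in normal glomerulus-rich and from -0.018 to 0.27 in normal injured-tubule-rich spots.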
